A study of Mus musculus with 6 samples.

Results

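The genes described here are those of the signals that make and sustain osteoclasts, the bone-resorbing cells: Tnfsf11, Tnfrsf11b, Tnfrsf11a, Csf1, Csf1r, Il34 and Nfatc1. They were chosen by name, with earlier results of these data known. Every probe set whose annotation gave exactly one of these 7 symbols was taken, which gave 19 of 45101 probe sets on the array. A probe set is a group of short probes read as 1 value, and there were 2 each for Tnfsf11, Tnfrsf11b and Tnfrsf11a, 4 for Csf1, 3 for Csf1r, 1 for Il34 and 5 for Nfatc1.

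RNA came from parietal bones of the skull roof of mice at 10 days of age, on Affymetrix mouse arrays. One genotype was wild type, called control here. The other, 13del-tg, expresses a Col10a1-13del transgene and is labelled as having bone overgrowth; collagen X, the product of Col10a1, is the collagen of hypertrophic cartilage, and the labels do not give the promoter of the transgene. The groups were littermates with 3 biological replicates each on the labels, which do not say whether animals were pooled. The values given for control 1 and for 13del-tg 1 were the same at every one of the 45101 probe sets. That array, called the shared array, belongs to no group below, and its values stand apart. The comparison sets 13del-tg 2 and 3 against controls 2 and 3, and with 2 arrays per genotype the number of arrays limits the precision of every value.

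Osteoclasts form from cells of the monocyte and macrophage lineage under a pair of signals. RANKL, encoded by Tnfsf11, is a cytokine of the tumour necrosis factor family carried on osteoblast-lineage cells, osteocytes, hypertrophic chondrocytes and lymphocytes. It binds its receptor RANK, encoded by Tnfrsf11a, on osteoclast precursors, and osteoprotegerin, encoded by Tnfrsf11b, is a secreted decoy that keeps RANKL from RANK. CSF1 and interleukin 34 both bind the receptor CSF1R, which keeps these precursors alive and dividing. RANK signalling induces NFATc1, the transcription factor that drives the osteoclast genes.

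The stretch upstream of the ligand gene is shown because Tnfsf11 is the gene whose probe sets stood highest in 13del-tg. It is the 250 bases before the transcription start of Tnfsf11 in RefSeq, build GRCm38.p6, chr14:78308044-78308293, minus strand, written 5′ to 3′ with the match to the core letters bound by NFAT factors in capitals.
Tnfsf11: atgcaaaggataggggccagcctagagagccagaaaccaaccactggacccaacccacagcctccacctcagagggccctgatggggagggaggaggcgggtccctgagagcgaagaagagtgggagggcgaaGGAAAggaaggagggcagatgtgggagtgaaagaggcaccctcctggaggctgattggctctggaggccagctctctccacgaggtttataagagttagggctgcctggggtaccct
Both strands were searched. The NFAT core GGAAA occurred 1 time, and 55.6% of 32851 mouse promoters cut to the same length held it. The AP-1 letters TGANTCA, the cAMP response element TGACGTCA, its shorter core TGACG (contained in it) and the RUNX core ACCACA were not among these 250 bases, and 6.75%, 1.55%, 17.8% and 14.0% of promoters held them.

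Of the 19 probe sets, 18 passed the filter on low signal, a mean log2(signal + 16) of at least 6.28 over the 5 distinct arrays, which corresponds to a signal of 61.9. None of the 18 passed the threshold of 0.05 on the limma p-value adjusted over all 27022 probe sets tested, where 0.0370% of probe sets passed, 2 higher (0.00740%) and 8 lower (0.0296%). The adjusted p of the 18 ran from 0.88 to 0.998. At an unadjusted p under 0.05, 2 of the 18 were higher in 13del-tg, both of Tnfsf11, and 2 were lower, 1 of Tnfrsf11a and 1 of Csf1r. Over all probe sets 1.42% were higher and 3.72% lower by that measure. Both 13del-tg arrays lay above both controls for 3 of the 18 and below both for 5, whereas 12.6% and 23.0% of all probe sets did so, shares near those of the 18. The difference of log2 values, 13del-tg minus control, was positive for 6 of the 18 and negative for 12, against 41.4% and 58.6% of all probe sets, and centring arrays on their median turned 3 of the 12 positive. Its median was -0.14 over the 18 and -0.075 over all probe sets tested. These are bulk tissue measurements, in which fewer cells of a type and less RNA per cell cannot be told apart.

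**Figure D1:**
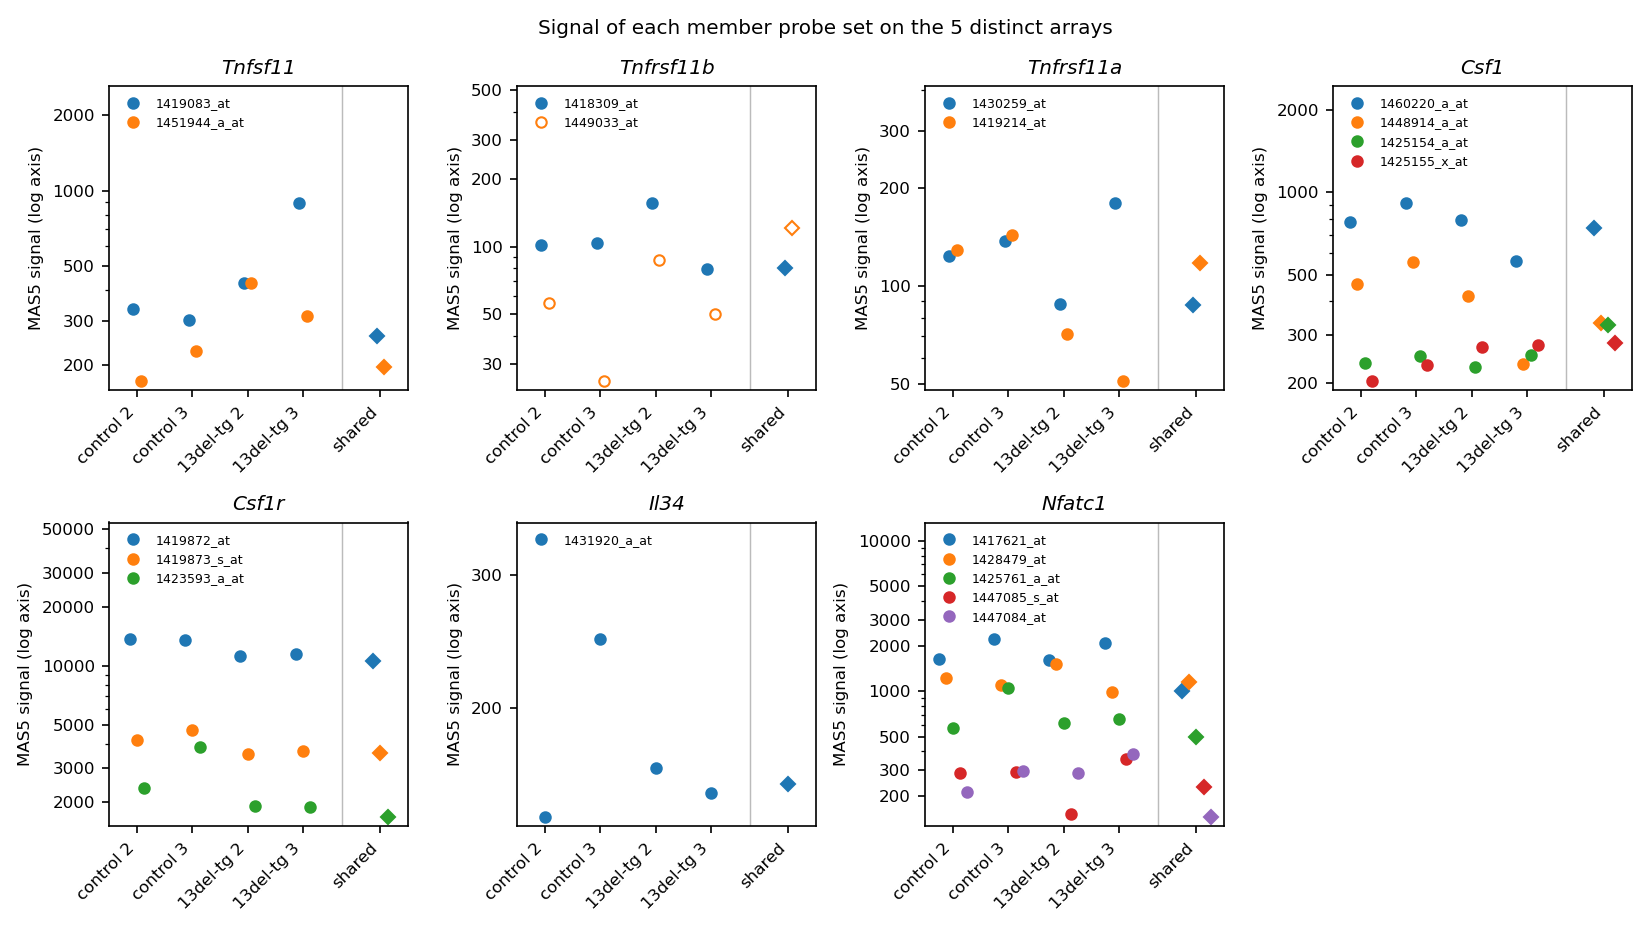
MAS5 signal (log axis) of each of the 19 probe sets, 1 panel per gene, on controls 2 and 3, 13del-tg 2 and 3 and, right of the line, the shared array; open symbols mark the probe set under the filter, Tnfrsf11b 1449033_at. Both Tnfsf11 probe sets lie higher on both 13del-tg arrays than on both controls, and all 3 Csf1r probe sets lie lower.

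Before these genes were compared, the transgene and the labels were checked. Col10a1 had a signal of 149.8 and 158.2 on the control arrays 2 and 3, 15689 and 11584 in 13del-tg 2 and 3, and 152.2 on the shared array, with a log2 difference of 6.31 (SE 0.23, limma adjusted p = 9.45e-05). Placing the shared array among the 13del-tg arrays ended this call (4.20, limma adjusted p = 0.909). The shared array thus had the Col10a1 signal of the controls under a label of each genotype. Its genotype was not taken from that value. Xist, transcribed from the inactive X chromosome, was 15206 on 13del-tg 3 and from 29.9 to 84.5 on the other 4 arrays, and the Y-linked Eif2s3y was 11.1 there against 1652 to 1910. Values without 13del-tg 3 therefore also set arrays alike in these sex-linked transcripts against each other.

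Tnfsf11, the ligand, had both probe sets higher on both 13del-tg arrays than on both controls. Probe set 1419083_at had a signal of 334.8 in control 2, 303.8 in control 3, 426.5 in 13del-tg 2 and 894.4 in 13del-tg 3. Both 13del-tg arrays were above both controls, and 13del-tg 3 stood far above 13del-tg 2. The means were 319 ± 21.9 and 660 ± 331 (SD over 2 arrays), which is 0.92 (SE 0.37) in log2 terms or 1.89-fold on the log2(signal + 16) scale, with a limma adjusted p of 0.88. The spread between the 2 13del-tg arrays was wider than the difference: without 13del-tg 3 the log2 difference was 0.40, and without 13del-tg 2 it was 1.44.

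The other Tnfsf11 probe set, 1451944_a_at, gave 173.5 for control 2, 228.1 for control 3, 427.6 for 13del-tg 2 and 314.6 for 13del-tg 3. Here too the groups did not overlap, but 13del-tg 2 was the higher of the transgenic arrays. The means were 201 ± 38.6 and 371 ± 79.9 (SD over 2 arrays), a difference of 0.83 in log2 terms (SE 0.32) or 1.78-fold, again with a limma adjusted p of 0.88. Without 13del-tg 3 this difference was 1.04, and without 13del-tg 2 it was 0.62. The shared array had 262.6 for the first probe set, below all 4 other arrays, and 197.0 for the second, between the controls. Among 3486 genes with 2 probe sets kept, 3.76% had both of them above the controls on both 13del-tg arrays, as Tnfsf11 did, and 10.3% had both below. An exact two-sided permutation test of 2 arrays against 2 cannot give a p below 0.333, which was its value for 1419083_at.

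Tnfrsf11b, the decoy receptor, was dim. Probe set 1418309_at had a signal of 101.9 and 104.2 on the control arrays 2 and 3, 157.5 and 79.4 in 13del-tg 2 and 3, and 80.5 on the shared array. The 13del-tg arrays lay on opposite sides of the controls. The log2 difference was 0.11 (SE 0.43, limma adjusted p = 0.978). The other probe set, 1449033_at, was under the filter and untested, at 56.0 and 25.2 in the controls and 87.3 and 50.0 in 13del-tg.

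The balance of ligand and decoy was followed as the log2 value of Tnfsf11 1419083_at minus that of Tnfrsf11b 1418309_at on each array, set against the mean of the controls. It was 0.081 and -0.081 on the control arrays 2 and 3, -0.14 in 13del-tg 2 and 1.76 in 13del-tg 3, and 0.037 on the shared array. Only 13del-tg 3 of these 5 arrays stood apart, and the groups overlapped. The difference between genotypes was 0.81, with an exact two-sided permutation p of 1, and without 13del-tg 3 it turned to -0.14. With the Tnfsf11 probe set 1451944_a_at in its place, 13del-tg 2 had 0.50 and 13del-tg 3 had 0.94, against -0.17 and 0.17 in the controls, a difference of 0.72 (exact two-sided permutation p = 0.333). The shared array had 0.29 for this pair, above both controls and below both 13del-tg arrays. With the dim Tnfrsf11b probe set 1449033_at as the decoy the groups overlapped for either Tnfsf11 probe set, and the shared array had -1.59 with 1419083_at and -1.34 with 1451944_a_at. So a shift toward the ligand on both transgenic arrays, clear of both controls, was seen with 1 of the 4 pairs of probe sets.

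The 2 probe sets of Tnfrsf11a, the receptor RANK, did not show the same pattern. Probe set 1419214_at gave 129.2 and 143.2 on the control arrays 2 and 3, 71.3 and 51.2 in 13del-tg 2 and 3, and 117.6 on the shared array. Both 13del-tg arrays were below all of the others, and their signals were near the level of the filter. The means were 136 ± 9.90 and 61.2 ± 14.2 (SD over 2 arrays), which is -0.99 in log2 terms (SE 0.39, limma adjusted p = 0.88), and the control level was 1.99 times that of 13del-tg. With 1 array left out at a time the difference stayed between -1.18 and -0.80.

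Probe set 1430259_at of the same gene gave 123.5 and 137.8 in the controls and 88.0 and 180.5 in 13del-tg 2 and 3. The 13del-tg arrays lay on either side of the controls, with a log2 difference of -0.035 (SE 0.42, limma adjusted p = 0.995), which turned to 0.13 with quantile normalization and 0.15 with arrays centred on their median. The shared array, at 87.7, was the lowest by a narrow margin.

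**Figure D2:**
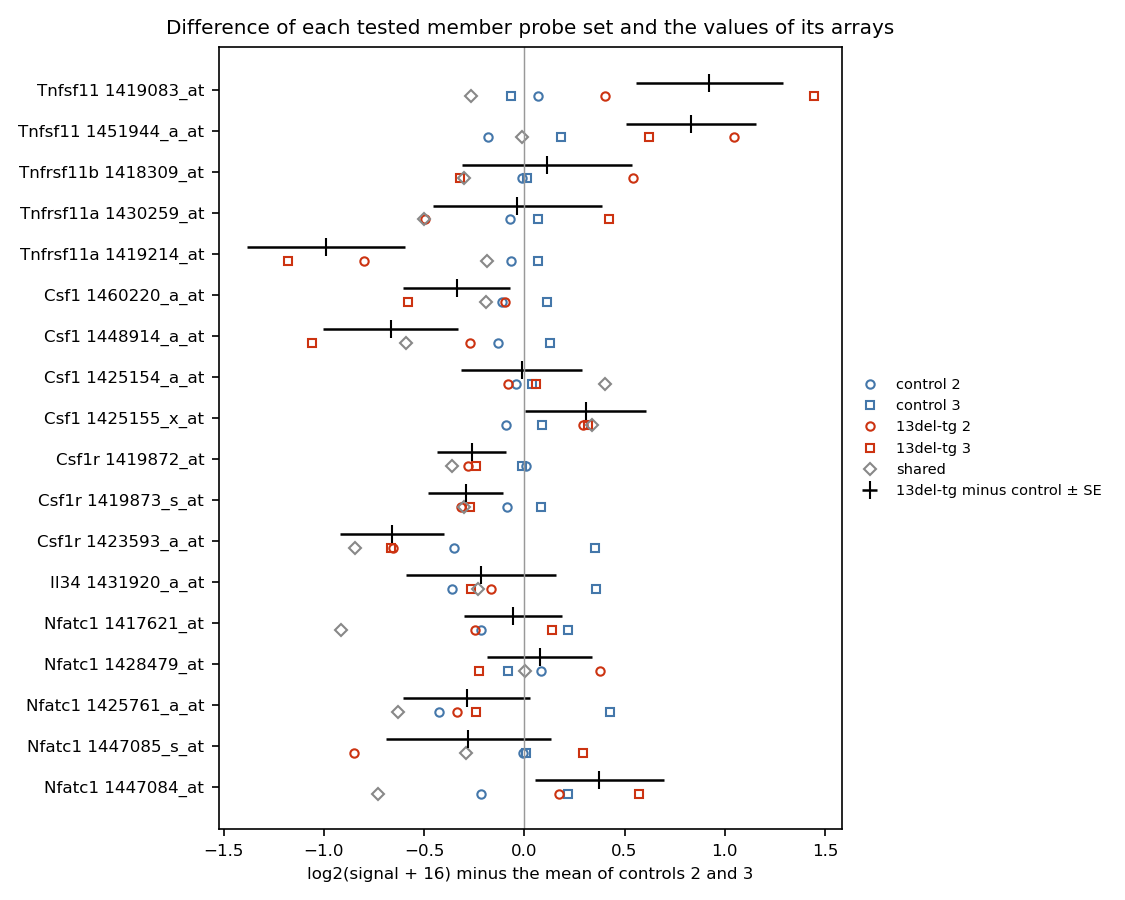
Log2 difference of each of the 18 tested probe sets, 13del-tg minus control, as a black tick with its SE from limma, and below it each array's log2(signal + 16) minus the mean of controls 2 and 3 (blue controls, red 13del-tg, grey shared array). For Tnfsf11 the red symbols lie right of the blue ones, for Csf1r and Tnfrsf11a 1419214_at left of them, and for all 5 Nfatc1 probe sets the groups overlap.

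Csf1, the ligand of CSF1R, gave different pictures from its 4 probe sets. The brightest, 1460220_a_at, had 780.9 and 916.8 on the control arrays 2 and 3 and 789.7 and 561.6 in 13del-tg 2 and 3. The groups overlapped narrowly, since 13del-tg 2 was just above control 2. The log2 difference was -0.34 (SE 0.26, limma adjusted p = 0.885), and it was -0.098 without 13del-tg 3, -0.58 without 13del-tg 2 and -0.22 without control 3.

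Probe set 1448914_a_at of Csf1 had 463.3 and 558.1 in the controls and 418.5 and 235.5 in 13del-tg 2 and 3, so both 13del-tg arrays were lower. Its log2 difference was -0.67 (SE 0.34, limma adjusted p = 0.88), and it was -0.27 without 13del-tg 3 and -1.06 without 13del-tg 2. Both of these probe sets were lowest on 13del-tg 3.

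The other 2 Csf1 probe sets were dimmer and differed from these. Probe set 1425154_a_at had 237.1 and 251.4 in the controls and 229.7 and 254.8 in 13del-tg, a log2 difference of -0.012 (SE 0.30). Probe set 1425155_x_at had 204.5 and 233.5 in the controls and 271.7 and 276.5 in 13del-tg, a log2 difference of 0.31 (SE 0.30, limma adjusted p = 0.90) with no overlap. The suffix x in its name marks a set whose probes may also match other transcripts. The shared array was above all 4 other arrays for both of them and within their range for the brighter pair.

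Il34, the other ligand of CSF1R, had 1 probe set, 1431920_a_at. It gave 143.6 and 246.6 on the control arrays 2 and 3, 166.5 and 154.4 in 13del-tg 2 and 3, and 158.6 on the shared array. Both 13del-tg arrays lay between the controls, whose own spread was the wider. The log2 difference was -0.22 (SE 0.37, limma adjusted p = 0.948), and it was 0.14 without control 3.

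Csf1r, the receptor, was lower on both 13del-tg arrays than on both controls with all 3 of its probe sets. The brightest, 1419872_at, had a signal of 13696 and 13520 on the control arrays 2 and 3 and 11182 and 11506 in 13del-tg 2 and 3. Its arrays were close within each genotype, at 13608 ± 124 and 11344 ± 229 (SD over 2 arrays). The log2 difference was -0.26 (SE 0.17, limma adjusted p = 0.882).

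Probe set 1419873_s_at of Csf1r had 4170 and 4689 in the controls and 3553 and 3664 in 13del-tg, a log2 difference of -0.29 (SE 0.19, limma adjusted p = 0.88). Probe set 1423593_a_at had 2373 and 3867 in the controls and 1917 and 1905 in 13del-tg, a difference of -0.66 (SE 0.26, limma adjusted p = 0.88). That larger difference rested in part on control 3: it was -0.31 without it and -1.01 without control 2. Of 1490 genes with 3 kept probe sets, 3.76% had all 3 below the controls on both 13del-tg arrays and 1.28% had all 3 above. The shared array had 10594, 3591 and 1682 for the 3 probe sets, the lowest of all arrays for the first and the third. Its marker medians against the controls were also low for osteoblasts (-0.62) and osteocytes (-0.54) and high for skeletal muscle (1.78). The source of these values was not tested. With arrays centred on their median, which moved the median of all probe sets from -0.075 to 0.11, the Csf1r differences were -0.078, -0.11 and -0.48. Quantile normalization, with a median of 0.00012 over all probe sets, gave -0.41, -0.37 and -0.70.

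Nfatc1, the transcription factor downstream of RANK, did not separate the genotypes with any of its 5 probe sets. The brightest, 1417621_at, had 1642 and 2225 on the control arrays 2 and 3 and 1610 and 2102 in 13del-tg 2 and 3. Replicates 3 of both genotypes were the higher ones, and the log2 difference was -0.055 (SE 0.24, limma adjusted p = 0.981), which turned to 0.13 with arrays centred on their median. The shared array had 1008, below all 4.

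Of the other Nfatc1 probe sets, 1428479_at had 1230 and 1097 in the controls and 1513 and 992.4 in 13del-tg (log2 difference 0.076, SE 0.26). Probe set 1425761_a_at had 573.8 and 1049 against 612.2 and 655.7 (-0.29, SE 0.32). Both show a spread within 1 genotype wider than the difference between genotypes. The 2 dimmest, 1447085_s_at and 1447084_at, are annotated to the same sequence record and had opposite signs, -0.28 (SE 0.41) and 0.37 (SE 0.32).

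The genes with the most similar course over the 5 distinct arrays were sought among 12859 genes for the 4 members whose brightest probe set varied more than the median probe set. Likeness was the root mean square distance between log2 values centred on their own mean, over 5 arrays, and is a description only. Closest to Tnfsf11 were Rps27l, encoding a ribosomal protein paralogue (distance 0.15), Avpi1 (0.15) and Cfi, encoding complement factor I (0.16). All 3 were highest on 13del-tg 3, with signals of 16293, 1644 and 372.8 there, as was Tnfsf11 1419083_at, the probe set the search was made with. The other Tnfsf11 probe set, 1451944_a_at, was highest on 13del-tg 2.

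Closest to Nfatc1 were Ryk, a receptor of the Wnt family ligands (0.044), Traf6, the adaptor that binds RANK (0.050), and Calcb (0.060). Traf6 had 463.1 and 656.4 on the control arrays 2 and 3, 454.2 and 600.2 in 13del-tg 2 and 3, and 308.2 on the shared array. That order is the one of Nfatc1 1417621_at, the probe set the search was made with, so it follows from the search. Nfatc1 1428479_at was instead higher in both replicates 2. Closest to Tnfrsf11b were Dcakd (0.063), Cbarp (0.086) and Prelp (0.092), and to Tnfrsf11a Marchf3 (0.052), Csrp2 (0.071) and Iah1 (0.076).

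Other genes of these pathways were taken from 7 lists, chosen with earlier results of these data known, with each gene read from its brightest probe set. None of the listed genes passed the adjusted threshold by limma in either direction, where 0.0700% of the 12859 genes did, 2 higher (0.0156%) and 7 lower (0.0544%). Of all genes, 1.54% were higher and 4.68% lower with an unadjusted p below 0.05. For all genes the median log2 difference was -0.074, 41.2% were positive and 58.8% negative, and both 13del-tg arrays lay above both controls for 13.4% and below both for 26.3%. Centring arrays on their median raised list medians with all others, so the medians and signs below are read against those of all genes. Of 92 pathway genes, each counted once, 66 were negative as reported, 65 with quantile normalization and 44 with arrays centred. The median of all probe sets was 0.00012 with quantile normalization and 0.11 with arrays centred, so these settings differ in the signs they give. For the 3 genes of each list with the smallest unadjusted p, the kept probe sets of a gene had the same sign. Those that differed clearly in size are given. Traf6 and Itgb3, listed genes named for other reasons, had kept probe sets of both signs.

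In the list of RANK signal transduction, 15 of 20 genes were negative (12 with quantile normalization, 6 with arrays centred). The median was -0.098, close to that of all genes. With 1 array left out it ran from -0.23 without control 2 to -0.062 without control 3. Both 13del-tg arrays were below both controls for 8 and above for 1, and at an unadjusted p under 0.05 1 gene stood higher and 2 stood lower. Mitf, a transcription factor of osteoclasts, had 1028 and 1098 in the controls and 779.2 and 549.4 in 13del-tg, a log2 difference of -0.69 (SE 0.26), or -0.44 without 13del-tg 3. Gab2, a scaffold protein that binds RANK, had -0.55 (SE 0.23), and Jun, part of the AP-1 complex, had 0.60 (SE 0.24), all 3 with a limma adjusted p of 0.88. The other kept probe set of Gab2 had -0.14 and that of Jun 0.12.

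In the list of costimulation and calcium signalling to NFATc1, 13 of 16 genes were negative (13 with quantile normalization, 9 with arrays centred). The list's median was -0.27, and it ran from -0.43 (13del-tg 3 left out) to -0.18 (13del-tg 2 left out). Of these genes 8 were below both controls, 1 of them at an unadjusted limma p under 0.05. Btk, a kinase that relays RANK and costimulatory signals, had 589.2 and 618.7 in the controls and 389.5 and 345.3 in 13del-tg, a difference of -0.70 (SE 0.26, limma adjusted p = 0.88). Its groups were well apart relative to their spread. Blnk, the adaptor that joins Btk to Syk, had -0.82 (SE 0.39) with overlapping groups, and the kinase Tec had -0.60 (SE 0.30). The Blnk value was -0.21 with 13del-tg 2 left out and -1.42 with 13del-tg 3 left out. That of Tec was -0.34 without control 3. Btk and Blnk are also genes of B cells, whose 5 measured markers were all negative.

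In the list of CSF1R signalling, 8 of 10 genes were negative (7 with quantile normalization, 5 with arrays centred). The list's median was -0.21, and it was -0.40 without 13del-tg 2, -0.14 without 13del-tg 3 and -0.32 without control 2. Of these genes 4 were below both controls, 0 of them at an unadjusted limma p under 0.05. Pik3cd, a catalytic subunit of phosphoinositide 3-kinase in leukocytes, had -0.73 (SE 0.36), which was -1.13 without control 2 and -0.34 without control 3; its other kept probe set had -1.20. The phosphatase gene Inpp5d had -0.55 (SE 0.29), and Cbl, the ubiquitin ligase that acts on CSF1R, had -0.38 (SE 0.22), all 3 with a limma adjusted p of 0.88.

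The genes that NFATc1 drives and other osteoclast genes were negative in 14 of 14 cases (14 with quantile normalization, 13 with arrays centred). The count was 12 without control 3 and 12 without 13del-tg 2. The list's median was -0.39, with 10 genes below both controls, 4 at an unadjusted limma p under 0.05. Among those with overlapping groups, Ctsk had a log2 difference of -0.0068 (SE 0.18) and Acp5 -0.19 (SE 0.22). With arrays centred on their median the list's median was -0.21. Car2, whose enzyme supplies protons for resorption and is also abundant in red cells, had 10721 and 10378 in the controls and 2187 and 6155 in 13del-tg, a difference of -1.52 (SE 0.41, limma adjusted p = 0.766). The 13del-tg arrays lay far apart: without 13del-tg 2 the value was -0.78, and without 13del-tg 3 it was -2.26 and passed the threshold (limma adjusted p = 0.0165). Prdm1, a repressor of the genes that hold osteoclast formation back, had -0.85 (SE 0.30), and Atp6v0d2, a proton pump subunit, had -0.63 (SE 0.22), both with a limma adjusted p of 0.88. The Atp6v0d2 value was -0.37 without 13del-tg 2, and its other kept probe set also had -0.37. The list's median was -0.52 without 13del-tg 3 and -0.23 without 13del-tg 2. On the shared array the median against the controls was -0.57, lower than on 13del-tg 2 (-0.52) and 13del-tg 3 (-0.23).

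Repressors of osteoclast formation had 6 positive and 4 negative differences (5 positive with quantile normalization, 7 with arrays centred). The list's median was 0.073, which was 0.030 without control 2 and 0.0011 without 13del-tg 3. Of the negative ones, 1 had an unadjusted limma p under 0.05. Irf8, which represses Nfatc1, had 344.0 and 442.5 in the controls and 182.0 and 246.1 in 13del-tg, a difference of -0.83 (SE 0.32), and Id1 had 0.38 (SE 0.19), both with a limma adjusted p of 0.88. The other kept Irf8 probe set had -0.014, so the 2 did not give the same picture. Cyld, a deubiquitinase that restrains RANK signalling, had -0.36 (SE 0.25, limma adjusted p = 0.883), which was -0.15 without 13del-tg 2 and -0.57 without 13del-tg 3. Of its 3 kept probe sets the smallest value was -0.11.

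Among inducers of RANKL and their receptors, 8 of 14 measured genes were positive (5 with quantile normalization, 9 with arrays centred). The list's median was 0.0093, and it ran from -0.11 without 13del-tg 2 to 0.085 without 13del-tg 3. At an unadjusted limma p under 0.05 there was 1 gene in each direction. Ptgs2, the inducible cyclooxygenase that makes the precursor of prostaglandin E2, had 66.9 and 55.8 on the control arrays 2 and 3, 299.3 and 189.0 in 13del-tg 2 and 3, and 79.0 on the shared array. Both 13del-tg arrays were clear of the other 3, with a log2 difference of 1.72 (SE 0.39, limma adjusted p = 0.577). It was 1.41 without 13del-tg 2 and 2.03 without 13del-tg 3.

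The prostaglandin E2 receptor gene Ptger2 was lower, at 91.5 and 79.2 in the controls and 31.2 and 26.0 in 13del-tg, a difference of -1.18 (SE 0.44, limma adjusted p = 0.88). The shared array, at 159.7, stood above both controls. The 13del-tg signals of Ptger2 were under the filter's level, so the size of this difference depends on the pseudocount. Il1b, an inflammatory cytokine, had -0.89 (SE 0.45, limma adjusted p = 0.88), which was -0.51 without control 3 and -0.52 without 13del-tg 2.

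Of the further ligands and receptors of these systems, 7 of 9 were negative (6 with quantile normalization, 4 with arrays centred). The list's median was -0.18 (-0.36 without control 2), with 0 genes at an unadjusted limma p under 0.05 in either direction. Flt3, a receptor of early progenitors and a relative of CSF1R, had -0.82 (SE 0.47), Csf2rb -0.38 (SE 0.24), and Ptprz1, also reported as a receptor of interleukin 34, had 0.54 (SE 0.35), all 3 with a limma adjusted p of 0.88. The Flt3 value was -0.40 without 13del-tg 3, -0.45 without control 3 and -1.25 without 13del-tg 2, and that of Csf2rb was -0.24 without control 3, while its other kept probe set had -0.73. The Ptprz1 difference was -0.012 without control 3, 0.33 without 13del-tg 2 and 1.09 without control 2, and the smallest of its 3 kept probe sets was 0.24.

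**Figure D3:**
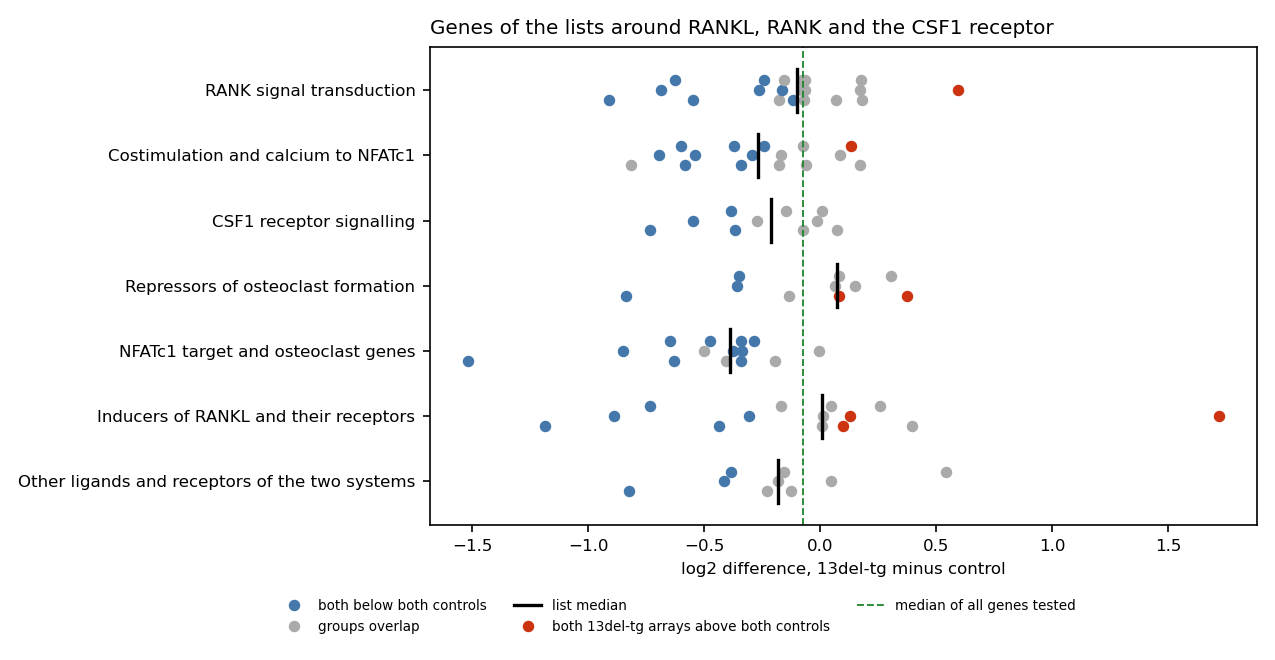
Log2 difference, 13del-tg minus control, of each measured gene in the 7 pathway lists; red points have both 13del-tg arrays above both controls, blue points both below, grey points overlap, black ticks are list medians and the dashed line is the median of all 12859 genes (-0.074). The list of NFATc1 targets and osteoclast genes lies wholly below 0 (13 of 14 with arrays centred), and Ptgs2, at 1.72, is the rightmost point.

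Markers of the cells that make or receive these signals were read on each array, and each list's median is that of its log2 differences. For osteoclasts, 11 of 11 markers, all of them also in the list of NFATc1 targets, were negative (11 with quantile normalization, 10 with arrays centred). The count was 9 without control 3 and 9 without 13del-tg 2. As reported, 7 were below both controls, while Ctsk, Acp5, Itgb3 and Ocstamp had overlapping groups. The other kept probe set of Itgb3 was positive, at 0.14. The list's summed signal was 88765 and 101730 in the controls, 68129 and 86580 in 13del-tg and 62489 on the shared array. Monocyte and macrophage markers, the cells that carry CSF1R, had a median of -0.042 with 7 of 11 negative (5 with quantile normalization, 3 with arrays centred). Their summed signals were 19616 and 20089 in the controls and 16989 and 21766 in 13del-tg, so their groups overlapped.

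Among the sources of RANKL, osteoblast markers had a median of 0.15 with 4 of 6 positive (3 with quantile normalization, 5 with arrays centred). Their summed signal was 114454 and 126575 in the controls, 130115 and 142761 in 13del-tg and 81268 on the shared array. Osteocyte markers had a median of 0.014 over 5 genes, 3 positive and 2 negative (1 positive with quantile normalization, 3 with arrays centred). Dmp1 had a log2 difference of 0.15, Pdpn 0.15, Phex 0.014 and Mepe -0.26. Sost, which encodes the Wnt inhibitor sclerostin and is named here after its values were seen, had 3183 and 3431 in the controls, 1264 and 859.2 in 13del-tg and 1892 on the shared array, a log2 difference of -1.65 (SE 0.24, limma adjusted p = 0.14), and its other kept probe set had -1.73. Of 7 T cell markers 2 passed the filter, with a summed signal of 123.6 and 277.9 in the controls and 137.4 and 253.5 in 13del-tg. The 8 chondrocyte markers had a median of -0.84, with 6 negative and 2 positive. The list includes Col10a1, the gene of the transgene, at 6.31. These markers ranged widely within the controls. Their median against the control mean was 0.89 and -0.89 on the control arrays 2 and 3 and -0.14 and -1.37 in 13del-tg 2 and 3.

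Among markers of other cells, erythroid markers were below both controls in 5 of 5 cases, with summed signals of 13005 and 15191 in the controls and 3101 and 4284 in 13del-tg, and B cell markers in 4 of 5, with 6604 and 9323 against 1422 and 4806. Neutrophil markers were negative in 7 of 7 cases but overlapped, with 41866 and 60137 against 17944 and 56492. Skeletal muscle markers were positive in 6 of 6, with 109583 and 20128 on the control arrays 2 and 3 and 156143 and 119050 in 13del-tg. The part of these cell types in the differences of Tnfsf11, Csf1r, Tnfrsf11a and the pathway genes was not tested.

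**Figure D4:**
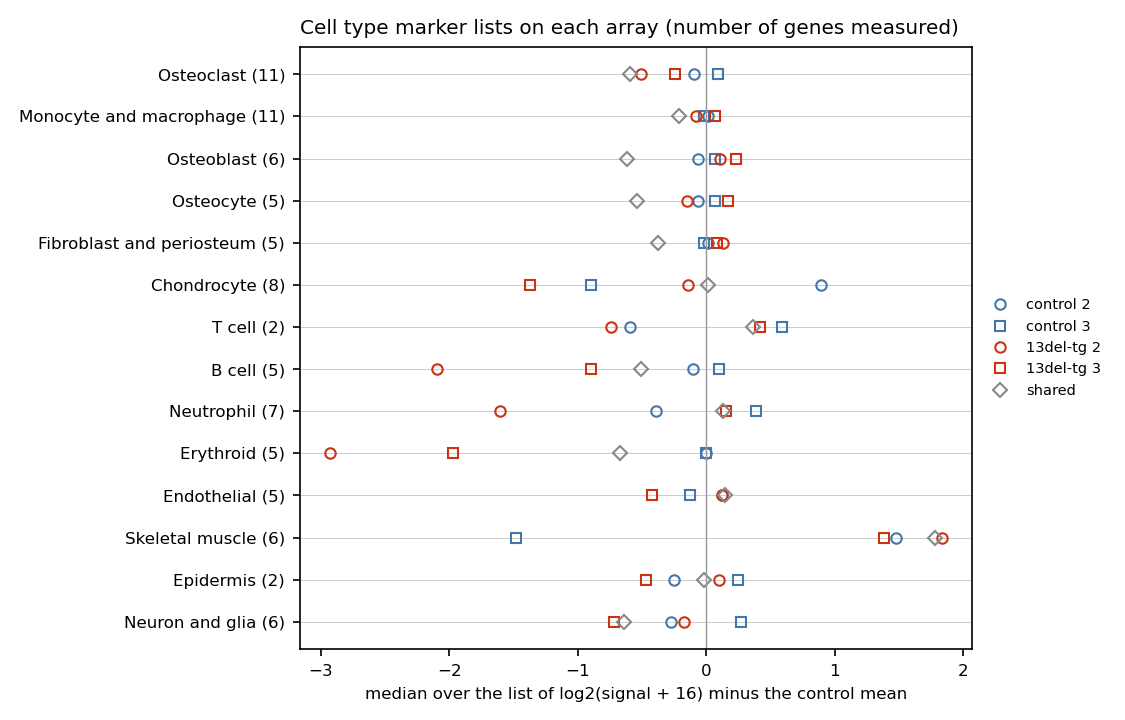
Median over each marker list of log2(signal + 16) minus the mean of controls 2 and 3, for the 4 compared arrays (blue controls, red 13del-tg) and the shared array (grey), with the number of genes measured in brackets. Osteoclast markers lie lower on both 13del-tg arrays than on both controls. Osteoclast, monocyte and macrophage, osteoblast, osteocyte and fibroblast markers all lie lowest on the shared array. Erythroid markers are lowest on 13del-tg, and muscle markers are lowest on control 3.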

How the data were processed

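Signals were read from 6 deposited columns, 3 per genotype. They are deposited as linear intensities made with MAS5, per the submitters' processing notes, which give no version. Their trimmed mean, leaving out 2% at each end, was 500.003 on every array, and no detection calls or scan dates were used. Values were transformed as log2(signal + 16), which understates changes of dim genes. The 64 control probe sets were left out, and 27022 of 45037 others, at or above the 40th percentile of the mean log2 value, were kept. The 2 genotypes were compared two-sided in R 4.3.3 with limma 3.58.1, using lmFit and a trended eBayes, and p-values were adjusted by Benjamini-Hochberg over all kept probe sets. The fit had 2 residual and 6.01 prior degrees of freedom, and the code was tested on simulated data. Symbols came from the platform annotation: 34945 probe sets had 1 symbol, 932 several and 9160 none, and 34741 matched the RefSeq table by gene number. Listed genes without such a probe set were not analysed here. All 7 members, every probe set, the 3 genes of each list with the smallest unadjusted p and the 3 most similar profiles are named. Members and lists were chosen with earlier results of these data known. Promoters came from RefSeq (GRCm38.p6) for Tnfsf11, Tnfrsf11a and Csf1. The labels say biological replicates and littermates. Alternatives covered pseudocount, filter, normalization, eBayes options, 1 probe set per gene, the replicate block, each array left out and the place of the shared array.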

Additional observations from a re-analysis of the deposited data

Results flagged for a closer look

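The shared array, which entered no comparison, had member signals above both controls and both 13del-tg arrays for 3 of 19 probe sets. Tnfrsf11b 1449033_at was 120.7 there, against 25.2 to 87.3 on the other 4 arrays, although the other Tnfrsf11b probe set was low there, at 80.5. Csf1 1425154_a_at was 328.1, against 229.7 to 254.8, and Csf1 1425155_x_at was 280.6, against 204.5 to 276.5. For 7 other member probe sets the shared array was below all 4.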

How the results depend on the processing

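Under each of 17 alternatives no member probe set passed the threshold. The Tnfsf11 1419083_at difference stayed positive in all of them, from 0.40 to 1.44, with a limma adjusted p of at least 0.0803; the differences of the other Tnfsf11 probe set, Tnfrsf11a 1419214_at and the 3 Csf1r probe sets kept their direction wherever they gave a value. The 60th percentile filter removed Tnfrsf11b, Tnfrsf11a and Il34, so they had no value there. Probe sets called higher and lower, 2 and 8 in the report, were 1 and 1 with a pseudocount of 1, with quantile normalization and with a 60th percentile filter, and 1 and 0 with no filter, without the trend and with the shared array as a control, where 1750, 1148 and 1125 lower had an unadjusted p under 0.05. They were 2 and 5 with a pseudocount of 64, 3 and 21 with arrays centred on their median, 2 and 18 with a robust prior, 0 and 8 with the shared array as 13del-tg, where 667 higher had an unadjusted p under 0.05, and 0 and 0 with 3 against 3, where 31 and 263 did so. Leaving out 1 array, which assumes that the lone array of a group varies like the others, gave 1 to 199 higher and 5 to 43 lower; the 199 and 43 came without control 2. With the replicate block they were 330 and 338 on 1 residual degree of freedom; same-numbered arrays correlated at 0.22 in their deviations over 2 pairs, which does not establish a pairing, and the block changed no member's call. Of the 92 pathway genes, 2 passed the threshold with the block, Ptgs2 (limma adjusted p = 0.0055) and Car2 (2.33e-10), and 1, Car2, without 13del-tg 3; none did under the other alternatives.

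With 1 array left out at a time, Tnfsf11 against Tnfrsf11b ran from -0.14 to 1.76, Tnfrsf11b 1418309_at from -0.32 to 0.54, Tnfrsf11a 1430259_at from -0.49 to 0.42, Csf1 1425154_a_at from -0.082 to 0.058, Il34 from -0.57 to 0.14, Ptprz1 from -0.012 to 1.09, and the Nfatc1 probe sets 1417621_at from -0.27 to 0.16, 1428479_at from -0.22 to 0.38, 1425761_a_at from -0.71 to 0.14 and 1447085_s_at from -0.85 to 0.29. The turns of sign came without control 3, without 13del-tg 2 or, for Tnfsf11 against Tnfrsf11b, without 13del-tg 3. Without control 3 values near 0 were Tnfrsf11a 1430259_at 0.035, Csf1 1425154_a_at 0.027 and Nfatc1 1428479_at -0.0047, and without 13del-tg 2 Nfatc1 1417621_at was 0.14. Quantile normalization and centring turned Tnfrsf11a 1430259_at to 0.13 and 0.15 and Csf1 1425154_a_at to 0.13 and 0.17, and centring turned Nfatc1 1417621_at to 0.13. With the shared array as a control Tnfrsf11a 1430259_at was 0.13 and Nfatc1 1417621_at 0.25, and with it as 13del-tg Tnfrsf11b 1418309_at was -0.026 and Csf1 1425154_a_at 0.13. The cause of these changes was not tested. Tnfrsf11b and Tnfrsf11a lay near the filter's signal of 61.9, where the pseudocount has most weight.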
